A study of Mus musculus with 8 samples.

Results

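The insulin-like growth factor (IGF) genes were examined in sorted mouse dermal fibroblasts after long-term topical inhibition of PPARG. The set comprised 9 genes, namely the ligands Igf1 and Igf2, the receptors Igf1r and Igf2r, and the binding proteins Igfbp2, Igfbp3, Igfbp4, Igfbp5 and Igfbp6. Every probe set annotated to exactly 1 of them was taken, which gave 20 of the 45141 probe sets on the array. These belonged to 8 genes, since the single probe set naming Igf2r also names Airn, the antisense RNA of that locus, and was left out. Igf1 and Igf1r had 4 probe sets each, Igf2 had 2, Igfbp4 had 6, and the other binding proteins had 1 each.

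Mice entered the study at 12 months of age, and their back skin was treated 3 times weekly over 6 months. The 4 animals of the treated group received 150 nmol of GW9662, a covalent inhibitor of PPARG, the nuclear receptor best known from fat cells, in 300 µl of acetone, and the 4 animals of the vehicle group received acetone alone. Fibroblasts were isolated after collagenase digestion by a gate on Pdgfra and CD34 that left out cells with CD45, CD117, CD24, CD31 or EpCam, and RNA came from 5000 cells per animal. The sources used here give neither strain nor sex. The comparison asks whether the IGF system of old dermal fibroblasts differs after PPARG inhibition.

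IGF1 and IGF2 are small secreted hormones related to insulin that signal through the tyrosine kinase receptor IGF1R, which feeds the PI3K, AKT and mTOR pathway. IGF2R binds IGF2 without such signalling and removes it from the surroundings. The binding proteins hold IGFs outside cells, and proteases that cut them set the ligands free. In skin, fibroblasts of the dermis are a source of IGF1, to which keratinocytes respond.

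No IGF gene passed the test between GW9662 and vehicle. Igf2 had the lowest log2 fold change among the measured IGF genes, at -0.36 ± 0.13 (SE, n = 4 per group), and Igfbp4 the highest, at 0.26 ± 0.41. The 4 probe sets of Igf1 and the 2 of Igf2 all had lower means after GW9662, and the 6 of Igfbp4 all had higher means. In limma over 17097 genes, 0 of the 8 measured IGF genes had an adjusted p under 0.05 (smallest adjusted p = 0.997), where 0.0% of all genes were called. Over 45037 probe sets, 0 of the 20 IGF probe sets passed in limma, where again 0.0% of all were called. At an unadjusted p under 0.05 there was 1 gene of the 8, Igf2, beside 3.38% of all genes. There were 3 of the 20 probe sets at that level, 1 each of Igf1, Igf2 and Igf1r, beside 3.55% of all probe sets. With the replicate number as a block, 1 of the 8 genes, again Igf2, had a limma unadjusted p under 0.05, beside 4.83% of all genes. Its adjusted p was 0.966. In that fit 4 of the 20 probe sets did, beside 4.85% of all probe sets. These were 1 each of Igf1, Igf2, Igf1r and Igfbp4, but the Igf1 set was not the same as without the block. Probe sets of 1 gene read the same RNA and are not independent. The groups overlapped in all 20 probe sets, while 1.9% of all probe sets had groups that did not.

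**Figure D1:**
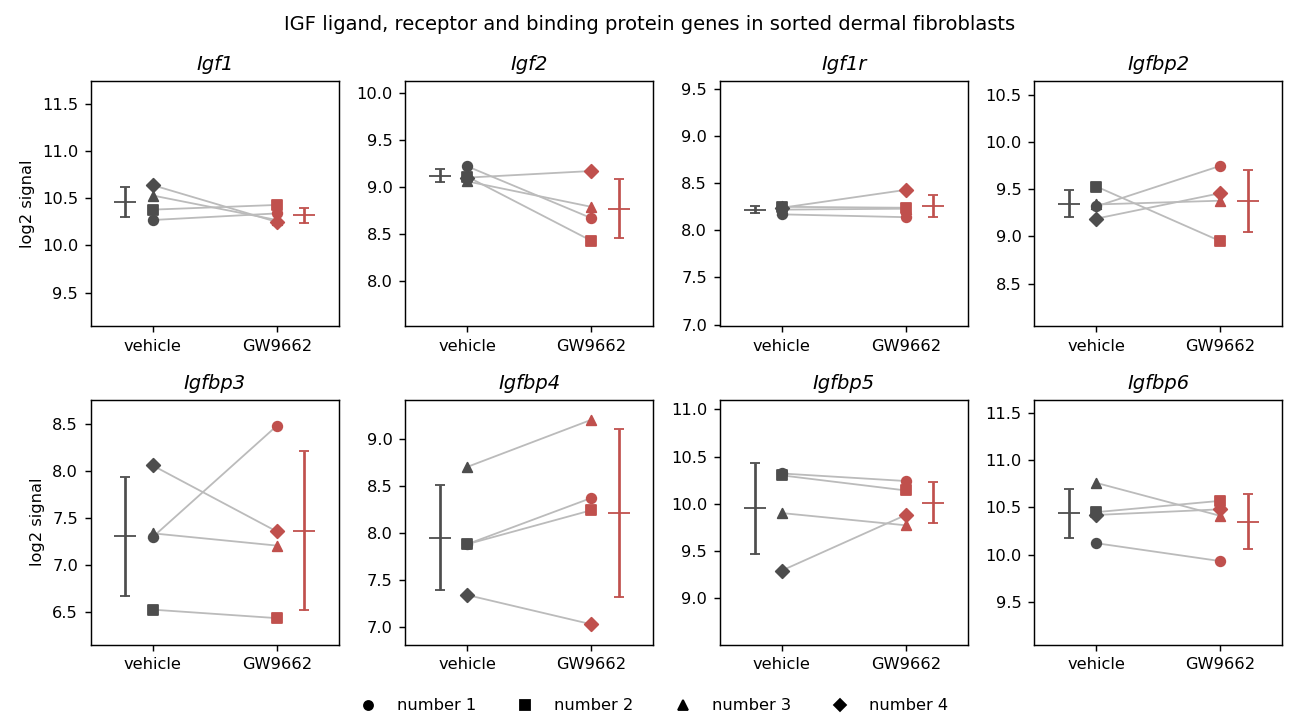
Log2 signal of the 8 measured IGF genes in each animal, by group, with lines joining animals of the same replicate number and bars giving mean ± SD (n = 4); each gene is shown by its probe set of highest mean, and all panels span the same number of log2 units. Igf2 is lower after GW9662 in numbers 1 to 3 and not in number 4, while Igfbp3 and Igfbp4 have the widest spread among animals.

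The start regions of Igf1, Igf2, Igf1r and Igfbp4 are given because these are the genes measured by several probe sets. Igf2 has 4 start regions, and the one shown is the only one of them with AGGTCA on either strand. Each covers 250 bases before and 50 bases after an annotated start, on the gene's own strand, from RefSeq on the GRCm38.p6 build. Capitals mark AGGTCA, the hexamer that nuclear receptors of the PPAR family recognise, or its reverse complement TGACCT, and in Igfbp4 the TATA box letters TATAAA.
Igf1 (chr10:87860861-87861160, plus strand): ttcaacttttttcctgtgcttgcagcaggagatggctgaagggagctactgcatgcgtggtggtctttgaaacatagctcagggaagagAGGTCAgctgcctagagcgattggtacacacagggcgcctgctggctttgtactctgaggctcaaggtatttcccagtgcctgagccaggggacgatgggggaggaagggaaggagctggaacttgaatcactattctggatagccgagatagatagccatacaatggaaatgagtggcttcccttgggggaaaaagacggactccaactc
Igf2 (chr7:142666767-142667066, minus strand): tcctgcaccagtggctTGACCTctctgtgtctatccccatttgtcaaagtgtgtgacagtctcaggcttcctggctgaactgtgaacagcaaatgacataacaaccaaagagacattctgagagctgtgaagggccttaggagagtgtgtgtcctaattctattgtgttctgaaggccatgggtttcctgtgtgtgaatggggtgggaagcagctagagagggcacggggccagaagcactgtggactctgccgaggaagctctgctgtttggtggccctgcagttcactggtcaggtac
Igf1r (chr7:67952007-67952306, plus strand): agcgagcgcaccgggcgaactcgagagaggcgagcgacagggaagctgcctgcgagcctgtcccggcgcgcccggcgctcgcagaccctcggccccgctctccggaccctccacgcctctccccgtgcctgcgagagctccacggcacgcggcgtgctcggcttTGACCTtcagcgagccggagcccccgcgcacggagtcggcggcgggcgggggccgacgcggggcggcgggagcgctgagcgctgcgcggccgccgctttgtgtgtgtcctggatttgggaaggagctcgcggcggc
Igfbp4 (chr11:99040994-99041293, plus strand): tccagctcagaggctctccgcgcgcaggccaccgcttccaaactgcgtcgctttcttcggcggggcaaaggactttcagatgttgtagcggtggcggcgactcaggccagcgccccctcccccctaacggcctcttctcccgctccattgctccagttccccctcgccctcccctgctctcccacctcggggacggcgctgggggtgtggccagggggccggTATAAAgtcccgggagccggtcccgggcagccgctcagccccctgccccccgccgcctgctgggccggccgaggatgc

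The 9 IGF genes have 13 start regions in that table, 4 of them of Igf2. AGGTCA on either strand was found in 4 of the 13, namely those of Igf1, Igf1r and Igf2r and 1 of the 4 of Igf2, and in 16.3% of all 32851 start regions of this length. The match began 161 bases before the start in Igf1, 234 in Igf2 and 86 in Igf1r. The full PPAR element, which holds AGGTCA in direct repeat with 1 base of any kind between the copies, was in 0 of the 13 and in 0.0396% of all regions. TATAAA on either strand was found in those of Igfbp4, where it began 28 bases before the start, and Igfbp6, and in 13.6% of all regions. These letters describe the windows only, and a match is not evidence of binding. Igf2 lies beside Ins2 on chromosome 7, Igfbp2 beside Igfbp5 on chromosome 1, and Igfbp3 beside Igfbp1 on chromosome 11, in the RefSeq gene table.

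Igf2, the imprinted growth factor best known from fetal tissue, had the lowest fold change of the set. Its brighter probe set (1448152_PM_at) read 9.22, 9.11, 9.06 and 9.10 on the log2 signal scale in vehicle animals 1 to 4. In GW9662 animals 1 to 4 it read 8.67, 8.43, 8.79 and 9.17. The vehicle values lay close together, and 3 of the 4 treated animals were below all of them, while GW9662 animal 4 was inside their range. The means were 8.77 ± 0.31 after GW9662 and 9.12 ± 0.07 in vehicle (SD, n = 4), and the log2 fold change was -0.36 with a 95% interval from -0.65 to -0.06. Limma gave an unadjusted p of 0.0215 and an adjusted p of 0.997 over all genes. Of all 17097 genes, 0.193% had a lower log2 fold change. The second probe set (1415931_PM_at) read 8.18, 7.94, 7.84 and 7.99 in vehicle and 7.51, 7.31, 7.70 and 8.24 after GW9662. It had the same 3 treated animals lowest, with GW9662 animal 4 above the whole vehicle group. Its log2 fold change was -0.30 ± 0.17 (SE; limma unadjusted p = 0.116). Within same-numbered animals the brighter set differed by -0.55, -0.68, -0.27 and 0.07, and the other by -0.67, -0.63, -0.14 and 0.25. Without GW9662 animal 4 the log2 fold change of Igf2 was -0.49 (limma unadjusted p = 0.000409, adjusted p = 0.873). Without GW9662 animal 2 it was -0.25 (limma unadjusted p = 0.0606). When its probe sets were averaged it was -0.33 (limma unadjusted p = 0.0545). The limma unadjusted p was 0.0553 without vehicle animal 1 and 0.055 without GW9662 animal 1.

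Igf1, the main ligand of the receptor in adult tissue, had a smaller difference that all of its probe sets shared in sign. The brightest set (1452014_PM_a_at) read 10.27, 10.38, 10.53 and 10.64 in vehicle animals 1 to 4. After GW9662 it read 10.34, 10.43, 10.27 and 10.25. Vehicle animals 3 and 4 stood above the rest, and the other 6 animals lay together. The log2 fold change was -0.13 ± 0.09 (SE), with a 95% interval from -0.32 to 0.06 and a limma adjusted p of 0.997. Its other sets had log2 fold changes of -0.19 (1437401_PM_at), -0.12 (1419519_PM_at) and -0.21 (1434413_PM_at). The last of these read 6.58, 6.54, 6.82 and 6.61 in vehicle and 6.38, 6.56, 6.20 and 6.55 after GW9662, so that GW9662 animals 2 and 4 overlapped the lower end of the vehicle values. Its unadjusted p was 0.0479 and its adjusted p 0.997 in limma over all probe sets. With the replicate number as a block, its limma unadjusted p was 0.0821. In that fit 1437401_PM_at was at 0.0455, with an adjusted p of 0.975. By pair, all 4 sets were lower after GW9662 in numbers 3 and 4, by -0.62 to -0.26 and by -0.39 to -0.06. In number 2 all 4 were higher, by 0.02 to 0.10, and in number 1 the sets were split, 2 higher and 2 lower. Without vehicle animal 4 the log2 fold change of Igf1 was -0.07. Without vehicle animal 1 it was -0.19 (limma unadjusted p = 0.0427, adjusted p = 0.999), and -0.16 when its probe sets were averaged. In the gene table Igf1 overlaps Igf1os and Igf2 overlaps Igf2os, and the sources used here do not say whether the labelled cDNA kept its strand, so signal from those antisense genes cannot be told apart. As the samples are bulk RNA, less RNA per cell and fewer cells that express a gene cannot be told apart either.

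**Figure D2:**
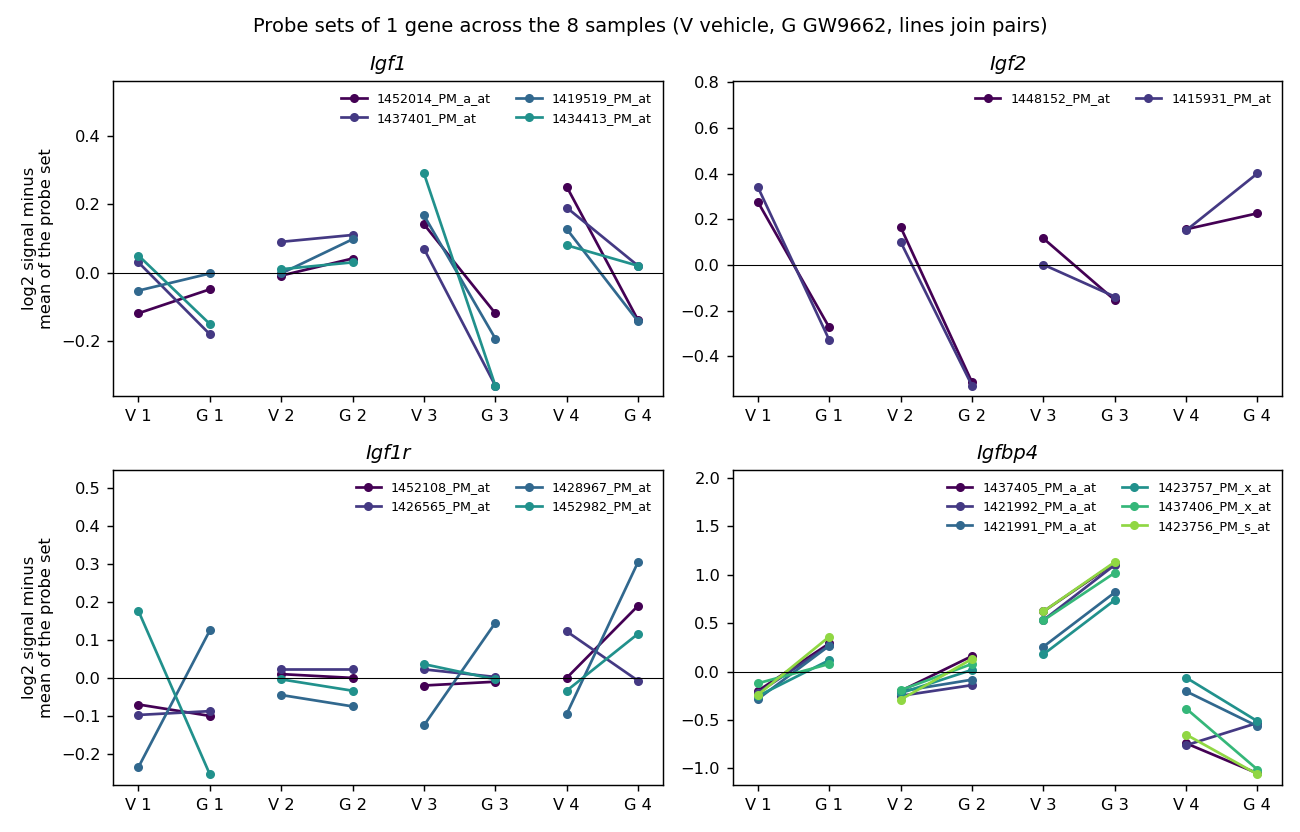
Log2 signal of each probe set of Igf1, Igf2, Igf1r and Igfbp4 minus its own mean over the 8 samples, with samples in pairs of the same number (V, vehicle; G, GW9662) and lines joining each pair. The 6 sets of Igfbp4 run together and peak in GW9662 3, the 2 sets of Igf2 run together, and the 4 sets of Igf1r run apart.

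Igf1r, the signalling receptor of both ligands, was measured by 4 probe sets that differed among themselves. The brightest (1452108_PM_at) read 8.17, 8.25, 8.22 and 8.24 in vehicle animals 1 to 4 and 8.14, 8.24, 8.23 and 8.43 after GW9662. These values lay within 0.29 of each other, and the log2 fold change was 0.04 with a 95% interval from -0.12 to 0.20. Another set (1428967_PM_at) read 7.64, 7.83, 7.75 and 7.78 in vehicle and 8.0, 7.80, 8.02 and 8.18 after GW9662. There 3 treated animals were above all vehicle animals and GW9662 animal 2 was inside their range. The log2 fold change of that set was 0.25 ± 0.08 (SE), with an unadjusted p of 0.0137 and an adjusted p of 0.997 in limma. The remaining sets had log2 fold changes of -0.03 (1426565_PM_at) and -0.09 (1452982_PM_at), so 2 sets of the gene were higher and 2 lower. In number 1 alone, the 4 sets differed between treated and vehicle animal by -0.43 to 0.36. The direction for Igf1r therefore depended on the probe set. In the RefSeq gene table this gene overlaps the predicted genes Gm51487 and Gm51488.

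Among the binding proteins, Igfbp4, an inhibitor of IGF action until the protease PAPP-A cuts it, had the highest fold change and one of the widest spreads. Its brightest set (1437405_PM_a_at) read 7.88, 7.88, 8.70 and 7.34 in vehicle animals 1 to 4. In GW9662 animals 1 to 4 it read 8.37, 8.24, 9.20 and 7.03. Both animals of number 3 were the highest of their groups and both of number 4 the lowest, and the groups overlapped across most of their range. The log2 fold change was 0.26 ± 0.41 (SE), with a 95% interval from -0.65 to 1.17. With the replicate number as a block the SE was 0.13 and the interval ran from -0.05 to 0.57 (limma adjusted p = 0.966). Within numbers 1, 2 and 3 all 6 sets were higher after GW9662, by 0.20 to 0.60, by 0.11 to 0.42 and by 0.49 to 0.57. Within number 4, 5 sets were lower and 1 higher, over a range from -0.63 to 0.23. All 6 sets had their highest value in GW9662 animal 3, and 5 had their lowest in GW9662 animal 4. Set 1421992_PM_a_at was the 1 that was higher in 4 of 4 pairs. It read 7.26, 7.23, 8.01 and 6.72 in vehicle and 7.75, 7.34, 8.58 and 6.95 after GW9662, a log2 fold change of 0.35 ± 0.35 (SE). With the replicate number as a block its SE was 0.09 and its limma unadjusted p 0.0051, but its adjusted p was 0.975, beside 4.85% of all probe sets at an unadjusted p under 0.05 in that fit. Without the block, its log2 fold change was 0.04 without GW9662 animal 3 and 0.16 without vehicle animal 4. It was 0.58 without vehicle animal 3 or without GW9662 animal 4. These fits ignore the pairs, whose differences in this set were 0.49, 0.11, 0.57 and 0.23. Likewise without the block, Igfbp4 was at -0.07 without GW9662 animal 3 and 0.06 without vehicle animal 4. It was at 0.51 without vehicle animal 3 and 0.65 without GW9662 animal 4. With the block and a whole pair left out, its log2 fold change was 0.18 to 0.45. Of its sets, 2 are of a class whose probes may match other transcripts (_x_) and 1 of a class shared between genes (_s_), by the array's naming.

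Igfbp3, the chief carrier of IGFs in blood, varied over 2.04 log2 units among the 8 animals. It read 7.30, 6.53, 7.34 and 8.06 in vehicle animals 1 to 4 and 8.48, 6.44, 7.21 and 7.36 after GW9662. GW9662 animal 1 was the highest, and both animals of number 2 were the lowest. The log2 fold change was 0.06 ± 0.41 (SE), with a 95% interval from -0.84 to 0.97. With the replicate number as a block the SE was 0.25 and the interval ran from -0.52 to 0.65. It was -0.30 without GW9662 animal 1 and 0.38 without GW9662 animal 2.

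Igfbp5, a binding protein that attaches to extracellular matrix, read 10.32, 10.30, 9.90 and 9.29 in vehicle and 10.24, 10.14, 9.77 and 9.88 after GW9662. Vehicle animal 4 was the lowest of all 8. Apart from number 4, where the treated animal was higher by 0.59, the pairs differed by -0.16 to -0.08. The log2 fold change was 0.06 ± 0.21 (SE), and -0.17 without vehicle animal 4.

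Igfbp6, which prefers IGF2 over IGF1, read 10.12, 10.45, 10.76 and 10.42 in vehicle and 9.93, 10.57, 10.41 and 10.48 after GW9662, a log2 fold change of -0.09 ± 0.16 (SE). Both animals of number 1 were the lowest of their groups. Igfbp2, which can also bind integrins, read 9.32, 9.53, 9.34 and 9.19 in vehicle and 9.75, 8.95, 9.38 and 9.46 after GW9662. Its highest and lowest values were both in treated animals, and the log2 fold change was 0.04 ± 0.15 (SE). In limma the adjusted p was 0.997 for each of these 5 binding proteins.

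**Figure D3:**
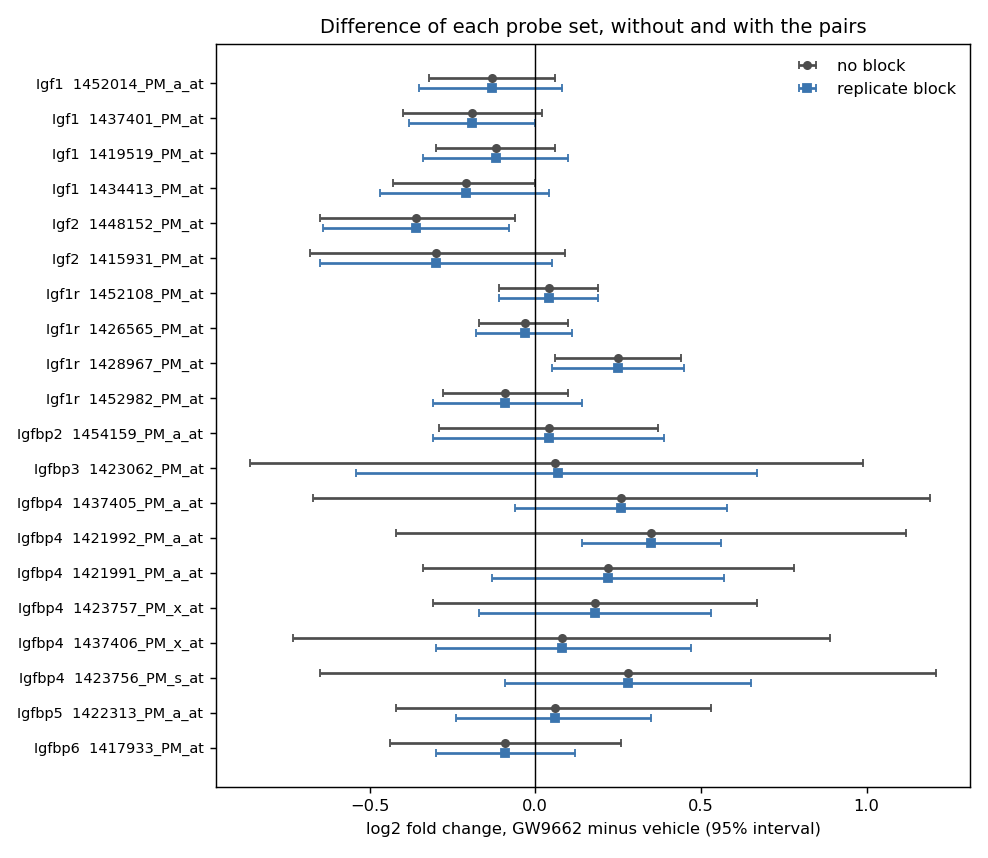
Log2 fold change (GW9662 minus vehicle) of each of the 20 IGF probe sets with its 95% interval in limma, without a block (circles) and with the replicate number as a block (squares). The intervals of the Igfbp4 sets are narrower with the block, and those of Igf1, Igf2 and Igf1r are about as wide.

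The genes differed in how their values divided between treatment and replicate number, the label shared by 1 animal of each group. For Igfbp4, 89.7% of the sum of squared deviations of the 8 values lay between the 4 numbers and 3.89% between the groups. The share between numbers was 81.1% for Igfbp6, 76.6% for Igfbp5 and 71.1% for Igfbp3, against a median of 47.3% over all genes. For Igf2 it was 24.2%, with 46.0% between the groups, and for Igf1 15.7%, with 26.1% between the groups. It was 64.0% for Igf1r and 23.7% for Igfbp2. By the probe set of highest mean, Igf1r and the binding proteins other than Igfbp2 thus lay above the median gene in this share. Both ligands and Igfbp2 lay below it. The other Igf1r sets had 74.2% (1426565_PM_at), 16.3% (1428967_PM_at) and 6.78% (1452982_PM_at), so the place of Igf1r depended on the probe set. Random spread alone puts part of the sum of squares between numbers, and less between groups, since there are more numbers than groups. The median of 47.3% therefore cannot be read as the part due to the replicate number, and the shares of a gene are not directly comparable. No median over all genes was taken for the share between groups. By the design text, a treated and a vehicle animal were killed together on each day, but it does not tie the numbers to days, so day and other shared handling cannot be told apart. The SD over the 8 animals was larger for Igfbp3 and Igfbp4 than for 99.9% of all genes, and for Igf1r it was larger than for 24.7%.

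**Figure D4:**
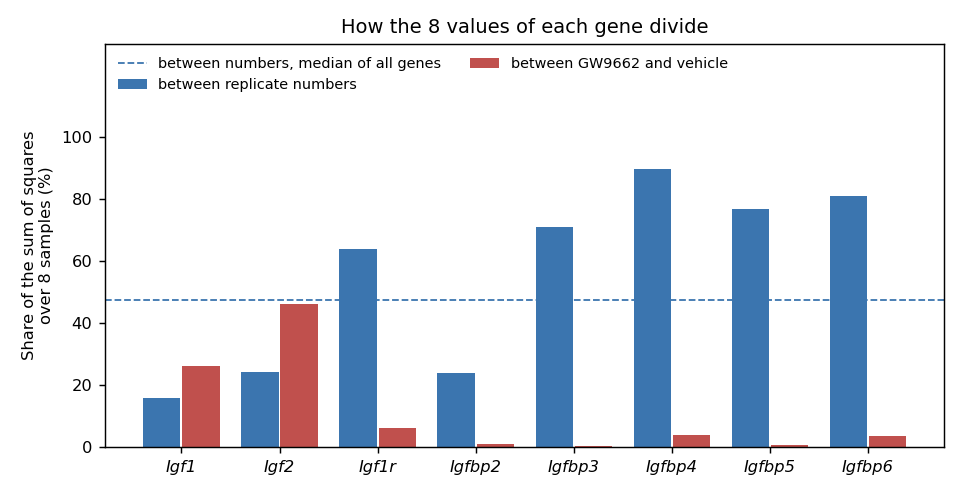
Share of the sum of squares over the 8 samples, in percent, that lies between the 4 replicate numbers and between GW9662 and vehicle, for each IGF gene; the dashed line is the median share between numbers over all genes. Igfbp4 has 89.7% between numbers, and Igf2 46.0% between groups. Random spread alone puts more between numbers than between groups, so the shares of a gene are not directly comparable.

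By Pearson correlation over the 8 samples, among 8275 brighter genes, Igfbp4 was most like Gtf3c4 (r = 0.975), Psat1 (0.967) and Vcan (0.952). Igfbp5 was most like Mettl9 (0.979), Cdkl2 (0.973) and Bckdhb (0.973), and Igfbp3 was most like Cstdc2 (0.968), Enpp3 (0.909) and Dusp18 (0.895). Igf1 was most like Nmral1 (0.987), Atrn (0.967) and Dand5 (0.960). Over 0.9 there were 89 genes for Igfbp5, 20 for Igf1, 18 for Igfbp4 and 2 for Igfbp3. These are the extremes of many comparisons over 8 samples that share pairs and treatment, and they carry no test.

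The rest of the IGF pathway was covered by 5 lists with 61 genes, of which 52 were measured. In limma 0 passed over all genes, and at an unadjusted p under 0.05 there was 1, Stc1, lower after GW9662, beside 3.38% of all genes. With the replicate block there were 2, Stc1 and Stat5a, both lower, beside 4.83% of all genes. The median log2 fold change was -0.01, against -0.005 over all genes and 0.04 over the 8 IGF genes, and 22 genes were higher and 30 lower by any amount. Of the 52, 46 lay between the 5th and 95th percentiles of all genes, -0.16 and 0.16.

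**Figure D5:**
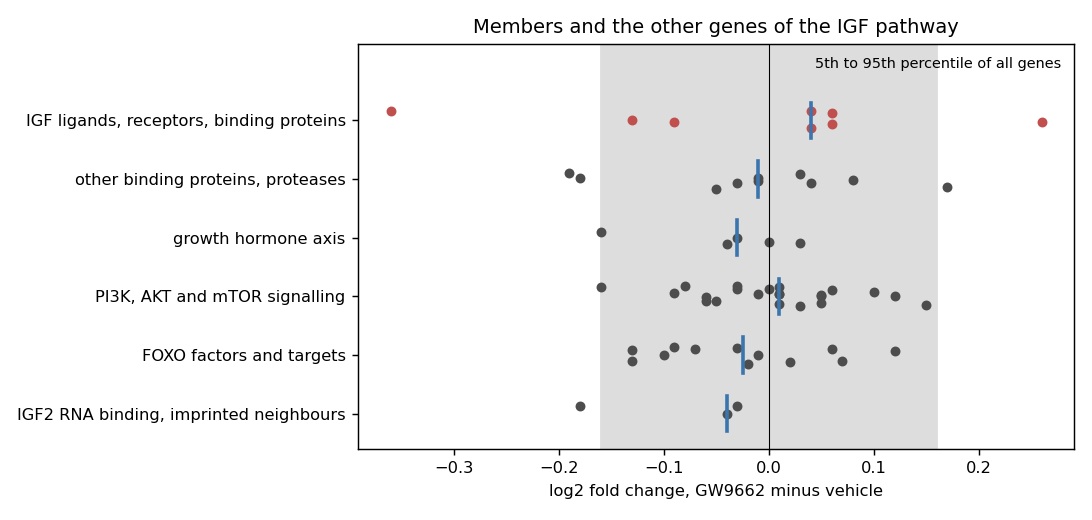
Log2 fold change (GW9662 minus vehicle) of the 8 measured IGF genes and of the genes of the 5 other pathway lists, each point a gene and each vertical bar the median of its list; the grey band spans the 5th to 95th percentile of all genes. Igf2 and Igfbp4 lie outside the band, and most pathway genes lie inside it.

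Of the other binding proteins and the proteases that act on them, 10 of 11 genes were measured, 4 higher and 6 lower (median -0.0087). Stc1, stanniocalcin 1, an inhibitor of PAPP-A, read 4.24, 4.50, 4.14 and 4.22 in vehicle and 4.07, 4.15, 4.06 and 4.07 after GW9662. It was lower in 4 of 4 pairs, with a log2 fold change of -0.19 ± 0.08 (SE; limma unadjusted p = 0.0413, adjusted p = 0.997), but its values lay below the array medians of 4.63 to 4.69. Without vehicle animal 2 it was at -0.11 (unadjusted p = 0.111 in limma), and when its probe sets were averaged at -0.10 (unadjusted p = 0.0956 in limma). Igfbp1, likewise below those medians, was at -0.18 ± 0.10, and Adam12, a membrane protease that cuts IGFBP3 and IGFBP5, at 0.17 ± 0.19 (SE). Adam12 was at 0.08 without vehicle animal 4 or GW9662 animal 1, 0.11 without GW9662 animal 2 and 0.39 without GW9662 animal 4.

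In the growth hormone axis, which drives Igf1 transcription in liver, 2 of 5 genes were higher and 3 lower (median -0.032). Stat5a, a transcription factor of that axis, read 9.38, 9.63, 9.78 and 9.67 in vehicle and 9.24, 9.57, 9.48 and 9.53 after GW9662. It was lower in 4 of 4 pairs, at -0.16 ± 0.10 (SE), while the groups overlapped. It was at -0.09 without GW9662 animal 1 and -0.10 without vehicle animal 3. Jak2, the kinase bound to the receptor, was at 0.03 and Ghr, the growth hormone receptor, at -0.04.

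In signalling from the receptor to PI3K, AKT and mTOR, 22 of 27 genes were measured, 12 higher and 10 lower (median 0.0088). Pdpk1, the kinase that activates AKT, read 7.51, 7.59, 7.79 and 7.49 in vehicle and 7.39, 7.48, 7.41 and 7.45 after GW9662. Its groups did not overlap, as in 1.75% of all genes, and its log2 fold change was -0.16 ± 0.07 (SE; limma adjusted p = 0.997), but -0.01 when its probe sets were averaged and -0.10 without vehicle animal 3. Rheb, the GTPase that activates mTOR, was at 0.15 and Grb14, an adaptor that inhibits the insulin receptor, at 0.12. Rheb was at 0.03 without vehicle animal 4, and Grb14 at 0.06 without GW9662 animal 1 and 0.08 without vehicle animal 4. The values of Grb14, 4.14 to 4.58, lay below the array medians.

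FOXO factors, which AKT keeps out of the nucleus, and their target genes had 4 of 12 measured genes higher and 8 lower (median -0.026). Foxo4 was at -0.13 ± 0.09 (SE), lower in 4 of 4 pairs, the target Ccng2 at 0.12 and Foxo3 at -0.10. Foxo4 was at -0.06 without GW9662 animal 1, and Ccng2 at 0.04 without vehicle animal 2. When the probe sets of a gene were averaged, Foxo4 was at -0.06, Ccng2 at 0.07 and Foxo3 at -0.05. Of the genes for IGF2 RNA binding and the neighbours of Igf2, 3 of 5 were measured. All 3 were lower, Igf2bp3 at -0.18, Ins2, the insulin gene, at -0.04 and Igf2bp1 at -0.03. By any amount, 8880 of all 17097 genes were lower. The Igf2bp3 set is of the _s_ class and the Ins2 set of the _x_ class, whose limits are given above for Igfbp4. Igf2bp3 was at -0.03 without GW9662 animal 3 and at -0.07 when its probe sets were averaged. The values of Igf2bp1, 4.13 to 4.51, lay below the array medians. None of these had an adjusted p under 0.997 in limma.

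All 10 fibroblast markers had means above the median of all values, with Col1a1 between 12.25 and 12.59 and Cd34 between 10.49 and 10.81, while Pdgfra, a marker of the sort, read only 4.63 to 5.13. Of 62 marker genes of 9 other cell types of skin and muscle, 54 were measured, 19 had a mean above the median of all values, and 2 had an unadjusted p under 0.05 in limma, beside 3.38% of all genes. The sample means of all 9 lists overlapped between groups. Immune markers met between groups at 4.59 alone, with list means of 4.66, 4.62, 4.59 and 4.59 in vehicle animals 1 to 4 and 4.56, 4.56, 4.56 and 4.59 after GW9662, and 7 of their 9 genes were lower by any amount. As with Igf2, GW9662 animals 1 to 3 were below all vehicle animals and GW9662 animal 4 was not. Ptprc, the gene of CD45, read 2.81 to 3.01 over the 8 animals. Endothelial markers ranged from 4.81 to 5.35 in vehicle and 4.88 to 5.22 after GW9662, and adipocyte markers from 4.81 to 5.0 and 4.85 to 4.95. Whether other cells had a part in the values of the IGF genes was not tested. Correlations between samples across genes ran from 0.990 to 0.997, and vehicle animal 4 had the lowest mean correlation with the others (0.992, others 0.994 to 0.995).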

How the data were processed

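The deposited values are log2 signals of 45141 probe sets in 8 samples, and per the submitters' processing notes they were made with RMA and the affy package. RMA corrects background, equalises arrays and summarises probes. The range of values set the base of the logarithm. Per the labels' protocols, 21 cycles of amplification preceded labelling of 7.8 µg of cDNA, which can alter relative signals. No detection calls were used. Levels were set against the median of all values only to describe how bright a probe set was, not as amounts of RNA. Precision is limited by having 4 arrays a group.

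Gene names came from the platform annotation, with symbols updated by gene ID from a GRCm38.p6 RefSeq table. Of them, 28898 had 1 gene, 551 several and 15692 none, and 104 were controls. The set with the highest mean stood for a gene (17097 genes). GW9662 minus vehicle was tested by limma 3.58.1 (lmFit, eBayes, two-sided; R 4.3.3) on all genes and on all 45037 probe sets that were not controls, with Benjamini-Hochberg adjustment and a threshold of 0.05. The procedure was tested on simulated data. Those values were drawn independently for each sample, without an effect of the replicate number, so they cannot speak to the pairs. Named were all IGF genes, the 3 genes of smallest unadjusted p in each pathway list, the 3 genes most correlated with each of the 3 IGF genes of largest SD and with Igf1, and the sort genes. The IGF genes and the lists were chosen with earlier results of these data known.

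Deviations from group means correlated across genes at 0.203, 0.163, 0.114 and 0.165 within pairs 1 to 4. Of the samples, 8 of 8 correlated best with their own number in the other group. Each pair is counted from both sides, so these 8 are not independent. On these values the numbers were read as pairs and fitted as a block beside the main test. The pairing thus rests on the same data that the block fit tests. At most 3.05% of values were equal in any 2 samples. The labels do not say more of the animals, so p-values measure the spread between these samples.

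Alternatives were the block, trend and robust variances, brighter features alone, repeated quantile normalization, centring on sample medians, array weights, averaging all probe sets of a gene, and samples or pairs left out. Promoter windows were searched for exact letters on both strands.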

Additional observations from a re-analysis of the deposited data

Results flagged for a closer look

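In 70 groups of 4 samples, from the 20 IGF probe sets and the 15 named pathway genes, 5 had 1 sample far from the other 3, by Dixon's 95% critical value. Chance gives about 1 in 20 such groups. They were Igfbp4 set 1421991_PM_a_at in vehicle animal 3 (7.66, the next 7.20), Stc1 in GW9662 animal 2 (4.15, the next 4.07), Adam12 in GW9662 animal 4 (7.29, the next 8.07), Igf2bp3 in GW9662 animal 3 (5.83, the next 6.38) and Ins2 in vehicle animal 4 (6.03, the next 5.88). In Igfbp4 the other 5 probe sets also had vehicle animal 3 highest in its group.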

How the results depend on the processing

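With 4 animals a group, the intervals of Igfbp3 and Igfbp4 are wide without the replicate block. The counts of called IGF genes, IGF probe sets and pathway genes were 0 in the main test, 0 with the replicate block and 0 under each other alternative run. Over all genes, 1 passed in the block fit without pair 4, and it was none of these. At an unadjusted p under 0.05 the 8 IGF genes gave 0 to 2 genes over the alternatives, and the 20 probe sets 1 to 4. Igf1 and Igf2 kept a negative sign in all 19 alternatives, with values from -0.20 to -0.05 and from -0.50 to -0.25. With a sample or pair left out, the sign turned in some cases. Values ran from -0.02 to 0.08 for Igf1r, -0.09 to 0.25 for Igfbp2 and -0.31 to 0.38 for Igfbp3. They ran from -0.07 to 0.65 for Igfbp4, -0.17 to 0.18 for Igfbp5 and -0.20 to 0.05 for Igfbp6. For Igfbp4 and Igfbp6 the sign turned only in fits without the block that left out a single animal. In the block fits without a pair, Igfbp4 was at 0.18 to 0.45. For probe sets, with a sample left out and no block, the ranges were -0.07 to 0.00 for Igf1r set 1426565_PM_at. For Igfbp4 sets they were -0.02 to 0.44 (1421991_PM_a_at), -0.04 to 0.38 (1423757_PM_x_at), -0.24 to 0.43 (1437406_PM_x_at) and -0.05 to 0.68 (1423756_PM_s_at). Among pathway genes, with a sample or a pair left out, ranges were -0.01 to 0.08 for Jak2 and -0.13 to 0.03 for Ghr. They were -0.22 to 0.03 for Foxo3, -0.09 to 0.02 for Ins2 and -0.10 to 0.03 for Igf2bp1. For Foxo3 the sign turned only in the block fit without pair 1. Array weights gave -0.07 for Igfbp5 and 0.01 for Ghr. The median of the IGF genes ran from -0.0733 to 0.0867 with samples or pairs left out, and that of PI3K, AKT and mTOR signalling from -0.0312 to 0.0142. Among brighter genes alone the median of the other binding proteins and proteases was 0.0588. The cause was not tested.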
